A study of Homo sapiens with 11 samples.

Results

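Secreted Wnt antagonists and the ligand WNT16 were followed in total RNA of HCT116, a human cell line established from a colorectal carcinoma. The 9 genes, SFRP1, SFRP2, SFRP4, SFRP5, DKK1, DKK2, DKK3, WIF1 and WNT16, were taken by symbol from the 58699 genes of the table, and each symbol matched 1 gene. They were chosen by symbol with their FPKM in these groups known, and were selected on that pattern, so their levels and the authors' calls for them are given as a description. All cells were transfected with an siRNA, aimed either at luciferase as control (siLuc) or at STAU1 (siStau1), whose product Staufen1 binds double-stranded RNA. Decitabine (DAC), which blocks DNA methylation, was used at 500 nM over 5 days (from the labels), and cells without it received the solvent DMSO. The 2 siRNAs and 2 treatments make 4 groups of 2 libraries. Levels are in FPKM (fragments per kilobase of transcript, scaled for library size), and how the scaling was done was not examined here. Apart from 1 gene that is no member, whose value differed between comparisons, the table holds 1 value per gene and group. No spread between the libraries of a group can therefore be given, and the sequencing depth is unknown. The labels do not say whether the libraries of a group came from separate cultures, so the authors' p-values may measure technical spread only.

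Wnt proteins are secreted ligands that bind a Frizzled receptor together with the coreceptor LRP5 or LRP6 and thereby stabilise beta-catenin, which switches on target genes in the nucleus. The SFRP proteins carry a Frizzled-like domain and, like WIF1, bind the ligands outside the cell, whereas DKK1 and DKK2 bind LRP5 and LRP6. In colorectal cancer the promoters of SFRP, DKK and WIF1 genes are often methylated. HCT116 carries an activating mutation in CTNNB1, the gene for beta-catenin, downstream of the step at which these antagonists act.

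The targeted gene, STAU1, had 35.5 FPKM with DMSO and 33.7 with DAC among siLuc cells, and 29.975 and 27.1 among siStau1 cells. Knockdown over control, its log2 ratio was −0.24 in DMSO and −0.31 in DAC. Its q-values were 0.767 and 0.685 (the authors' deposited table), so siStau1 names the label of a group here, and the mRNA of STAU1 was not called different. The epithelial label of the line was checked against 8 epithelial markers, of which 6 reached 1 FPKM in every group, EPCAM and KRT8 among them, while VIL1 stayed below 1 FPKM in every group and CDX1 was listed at 0 in both DMSO groups. Log2 ratios of protein-coding genes that reached 1 FPKM in each of the compared groups followed the GC content of the transcript in all 4 comparisons, with Spearman's rho across genes, which are not independent replicates, from −0.715 to 0.659.

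Because decitabine lowers the methylation of CpG sites, the sequences before the RefSeq transcription start were examined first. RefSeq promoters on GRCh38.p14 were matched for 6 of the 9 members, and the 250 bases before the start were used. RefSeq and GENCODE differ in where some of these genes start: all 250 bases of the WIF1 window, 98 of the SFRP4 window and 37 of the SFRP2 window lie in an exon of the same gene in GENCODE, and the WNT16 window lies in an intron of its longer transcript. The methylation of these sites was not analysed here. CpG sites numbered 17 for WNT16, 18 for DKK1, 11 for SFRP2, 17 for SFRP4, 21 for SFRP5 and 27 for WIF1, and the median over 35116 promoters was 11. The WIF1 window, exonic by GENCODE, held the most, with 82.3% of promoters holding fewer CpG sites, whereas SFRP2 lay at the median. The ratio of observed to expected CpG was 0.99 for WIF1, 0.73 for DKK1, 0.65 for WNT16 and 0.53 for SFRP2, against a median of 0.56. WNT16, which was lower with DAC, and DKK1, which was high in every group, thus had similar numbers of CpG sites.

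Of these windows, 3 are printed 5′ to 3′ on the strand of the gene, with each CpG in capitals and without bases that GENCODE places in an exon. They set the member that fell with DAC (WNT16) beside the member that was abundant throughout (DKK1) and a member that was listed at 0 with DMSO and above 0 with DAC in both siRNA arms (SFRP2). The stretches are chr7:121328750-121328999 on the plus strand for WNT16, chr10:52314031-52314280 on the plus strand for DKK1 and chr4:153789121-153789333 on the minus strand for SFRP2.
WNT16: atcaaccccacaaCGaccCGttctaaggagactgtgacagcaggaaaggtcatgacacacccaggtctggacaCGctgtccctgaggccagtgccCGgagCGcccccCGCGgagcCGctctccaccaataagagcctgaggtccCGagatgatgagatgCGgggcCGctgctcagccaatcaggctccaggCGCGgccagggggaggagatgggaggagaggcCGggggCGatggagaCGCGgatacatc
DKK1: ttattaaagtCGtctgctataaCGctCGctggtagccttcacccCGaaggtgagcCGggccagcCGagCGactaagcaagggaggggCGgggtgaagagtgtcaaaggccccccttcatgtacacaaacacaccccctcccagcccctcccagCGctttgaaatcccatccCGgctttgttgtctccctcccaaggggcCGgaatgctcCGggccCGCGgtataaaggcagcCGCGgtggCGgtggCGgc
SFRP2: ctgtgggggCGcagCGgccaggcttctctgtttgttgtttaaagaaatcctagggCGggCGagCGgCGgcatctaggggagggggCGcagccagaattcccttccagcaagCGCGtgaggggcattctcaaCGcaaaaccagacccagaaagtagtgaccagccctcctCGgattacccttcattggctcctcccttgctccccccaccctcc
The letters CTTTGAT and CTTTGTT, short forms of the site bound by the TCF and LEF partners of beta-catenin, were searched on both strands. Other forms of the site were not searched, so the windows may hold more such sites. CTTTGTT was found 1 time in the DKK1 window and in none of the other 5 windows, and 4.499% of all promoter windows hold it. CTTTGAT was found in none of the 6 windows and in 2.26% of all.

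**Figure D1:**
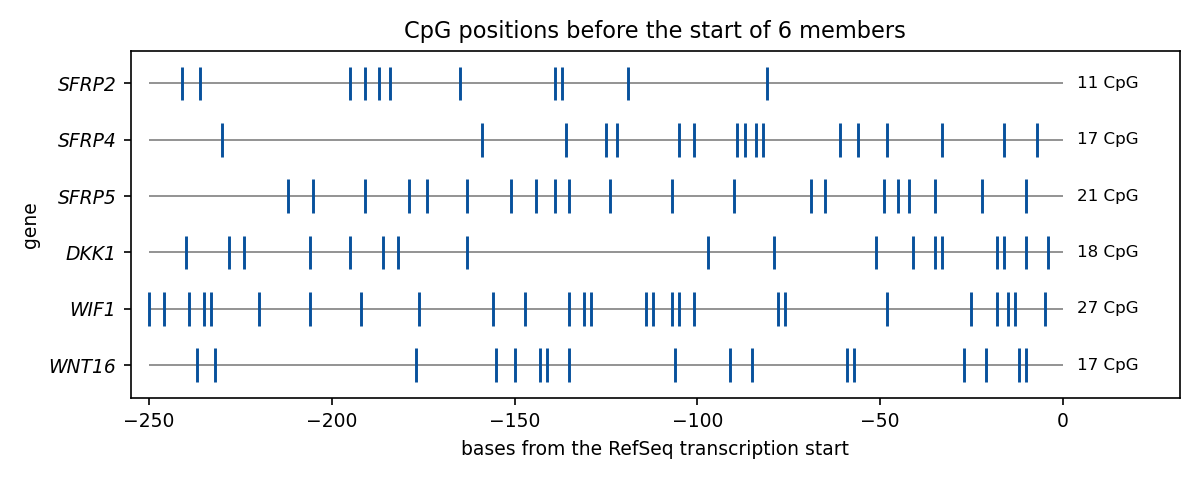
Positions of CpG sites (vertical bars) in the 250 bases before the RefSeq transcription start of 6 members, with the distance from the start in bases on the x axis and 1 gene per line. WIF1, whose window is exonic in GENCODE, holds 27 sites spread over the whole window and SFRP2 holds 11, the fewest of the 6.

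Of the 9 members, 2 reached 1 FPKM in any group, DKK1 and WNT16, and SFRP4 was listed at 0 in all 4 groups. Since FPKM is a level per length, members can be ordered by it. In siLuc DMSO the order was DKK1 (204 FPKM), WNT16 (15.9), DKK3 (0.0626) and SFRP1 (0.00823), with the other 5 listed at 0. In siLuc DAC it was DKK1 (174), WNT16 (1.06), DKK3 (0.723), SFRP1 (0.305), WIF1 (0.0909), DKK2 (0.0706) and SFRP2 (0.0454), with SFRP4 and SFRP5 listed at 0. In siStau1 DAC, SFRP1 stood above DKK3. With 1 value per group it cannot be said which neighbours in these orders differ beyond their spread.

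**Figure D2:**
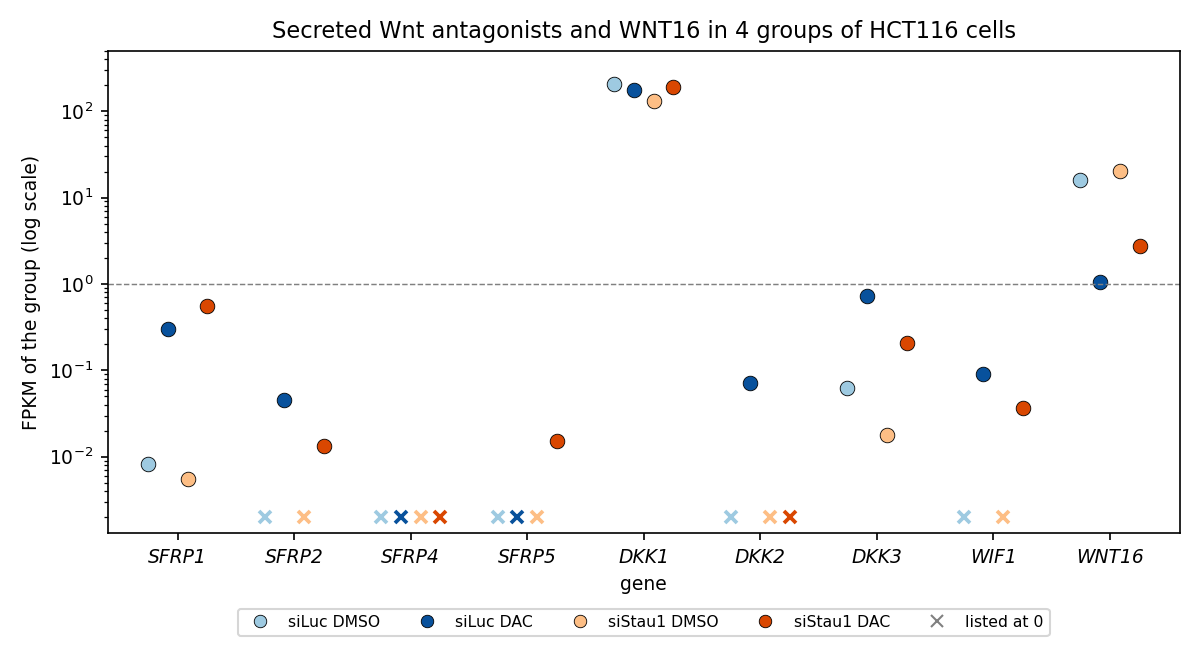
FPKM of each member (x axis) in the 4 groups on a log y axis, with 1 point per group of 2 libraries. Crosses at the bottom mark values listed at 0, which have no place on a log scale, and the dashed line marks 1 FPKM. DKK1 stays between 130 and 204 FPKM, WNT16 drops with DAC in both arms, and the other members stay below 1 FPKM.

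WNT16 is a secreted ligand known for its role in bone mass. The gene (ENSG00000002745.12) lies on chromosome 7, 121325367 to 121341104 on GRCh38, and GENCODE gives it 2 protein-coding transcripts, one starting at 121325367 and the other at 121329003. The printed window lies just before the second of these starts, and the table gives 1 value for the gene. WNT16 had 15.9 FPKM with DMSO and 1.06 with DAC among siLuc cells, and 20.3 and 2.74 among siStau1 cells. Both DAC values were thus below both DMSO values. Of protein-coding genes, 75.7% had a lower level in siLuc DMSO and 40.0% in siLuc DAC. In siStau1 the share was 79.3% with DMSO and 49.2% with DAC.

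The log2 ratio of DAC over DMSO, computed with 0.1 FPKM added to each group, was −3.79 for WNT16 in siLuc and −2.85 in siStau1. Of all genes tested by the authors, 0.388% had a lower ratio in siLuc and 1.42% in siStau1. In the authors' deposited table the q-value was 0.00162 in both arms, the smallest the table holds. WNT16 was the only member called in either arm, among 3 members tested in each. Over all genes 13.5% of tests were called for DAC in siLuc, 8.71% as higher and 4.78% as lower. For DAC in siStau1 7.46% were called, 4.56% as higher and 2.89% as lower. Members called as higher numbered 0 in each arm, with 0 at an unadjusted p-value under 0.05 in the Cuffdiff table. Nothing is read from these counts, since the members were chosen on the same contrasts. The transcript of WNT16 has a GC content of 41.4%, and within bins of similar GC content the ratios were −3.20 and −2.42. Bulk RNA cannot tell fewer cells with the transcript from less RNA per cell.

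Without DAC, WNT16 had a log2 ratio of siStau1 over siLuc of 0.35, and the authors' deposited table gave q = 0.674. With DAC this ratio was 1.29, and the authors' deposited table gave a p-value of 0.0187 and a q-value of 0.149, which did not pass. The ratio with DAC was 0.93 within GC bins. The DAC ratio of WNT16 in siStau1 lay 0.94 above that in siLuc. This difference was not tested, and 10.7% of 12610 protein-coding genes with at least 1 FPKM in any group differed by 1 or more between the arms.

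The protein-coding genes on either side of WNT16 went in opposite directions. These neighbours were looked up after the values of WNT16 were known. FAM3C, which encodes a secreted cytokine-like protein and lies 7747 bases away on the opposite strand, had 118 FPKM with DMSO and 26.7 with DAC among siLuc cells, and 133 and 60.7 among siStau1 cells. Its log2 ratio with DAC was −2.14 in siLuc and −1.12 in siStau1, and the authors' deposited table gave q-values of 0.00162 and 0.124. CPED1, 27923 bases away on the other side and on the same strand as WNT16, had 0.478, 2.69, 0.454 and 3.17 FPKM in that order. Its log2 ratio with DAC was 2.27 in siLuc and 2.56 in siStau1, with q-values of 0.0761 and 0.00415 in the authors' deposited table. FAM3C was thus called lower in siLuc, and CPED1 was called higher in siStau1.

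**Figure D3:**
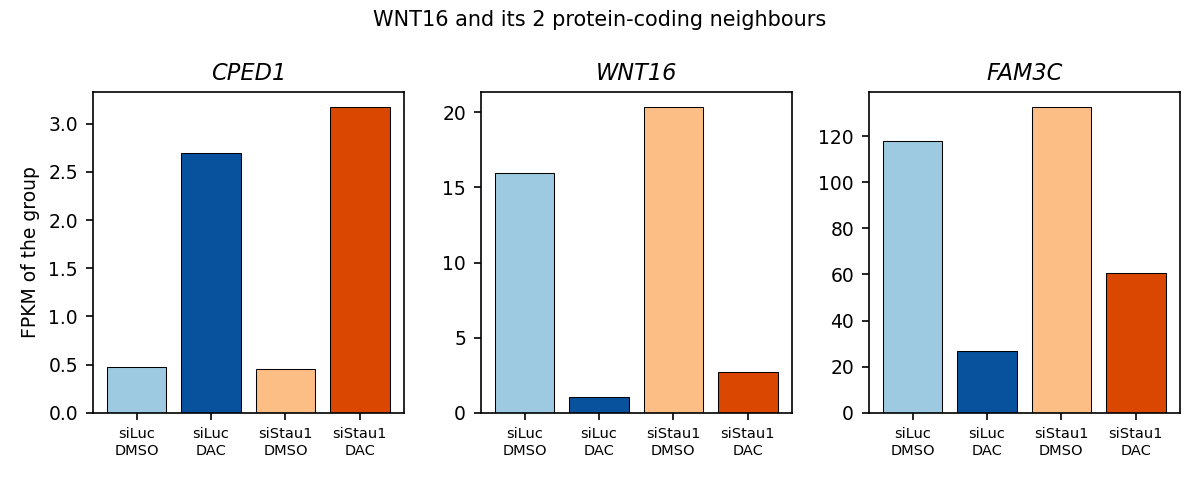
FPKM of WNT16 (middle) and of its next protein-coding genes CPED1 and FAM3C in the 4 groups, with 1 bar per group of 2 libraries and a separate y axis from 0 in each panel. With DAC, WNT16 and FAM3C are lower in both arms (WNT16 from 15.9 to 1.06 FPKM in siLuc), while CPED1 is higher in both.

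Among the DKK genes, DKK1 encodes an inhibitor that binds LRP6 together with a Kremen receptor and is itself a known target of beta-catenin. The gene (ENSG00000107984.9) lies on chromosome 10, 52314296 to 52318042. DKK1 had 204 FPKM with DMSO and 174 with DAC among siLuc cells, and 130 and 188 among siStau1 cells. It was therefore the most abundant member in every group, above at least 96.6% of protein-coding genes, and lowest in siStau1 DMSO. PRKG1-AS1, which overlaps DKK1 on the opposite strand, stayed between 0.316 and 1.11 FPKM.

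DKK1 was tested in all 4 comparisons and called in none in the authors' deposited table. The log2 ratio of DAC over DMSO was −0.24 in siLuc, where q was 0.849 in that table, and 0.53 in siStau1, where q was 0.654. Within GC bins these ratios were 0.20 and 0.85, so the sign in siLuc changed. Knockdown over control, its log2 ratio was −0.66 with DMSO (q = 0.559 in the authors' deposited table) and 0.11 with DAC (q = 0.935), and within GC bins −0.78 and −0.05, so the sign with DAC changed. The receptors of the DKK proteins were present in every group: LRP5 had 3.43 to 7.09 FPKM, LRP6 8.17 to 14.3, KREMEN1 2.78 to 4.27 and KREMEN2 1.46 to 4.004, and none of these 4 genes was called in the DAC comparisons.

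DKK2 (chromosome 4, 106921802 to 107283806), which also binds LRP6 and can block or activate signalling depending on Kremen, was listed at 0 in siLuc DMSO and in both siStau1 groups and had 0.0706 FPKM in siLuc DAC. RAC1P5, a pseudogene that overlaps DKK2 on the same strand, had 0.0583 to 1.08 FPKM. DKK3 (chromosome 11, 11963106 to 12009769), a divergent family member not known to bind LRP6 in the same way, had 0.0626 FPKM with DMSO and 0.723 with DAC among siLuc cells, and 0.0176 and 0.207 among siStau1 cells. Both DAC values of DKK3 lay above both DMSO values, and within DAC the value was lower in siStau1. The log2 ratio with DAC in siLuc was 2.34 (q = 0.558 in the authors' deposited table), and in siStau1 it was 1.38 and not tested by them. Between the DAC groups the log2 ratio, siStau1 over siLuc, was −1.42, and the authors' deposited table gave a p-value of 0.00545 and a q-value of 0.0650, which did not pass. Of the tested genes 3.60% had a lower ratio, and within GC bins the ratio of DKK3 was −1.10.

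Of the antagonists that bind the ligand, SFRP1 (ENSG00000104332.11) had 0.00823 FPKM with DMSO and 0.305 with DAC among siLuc cells, and 0.00555 and 0.562 among siStau1 cells. Both DAC values were above both DMSO values, yet SFRP1 stayed below 1 FPKM throughout, and 36.3% of protein-coding genes had a lower level in siStau1 DAC. Its log2 ratio with DAC was 1.90 in siLuc, where the authors did not test it, and 2.65 in siStau1 (q = 0.603 in the authors' deposited table). At such levels the ratio depends on the pseudocount: with 1 FPKM added it was 0.37 and 0.64, and with 0.01 it was 4.11 and 5.20. Between the DAC groups its log2 ratio, siStau1 over siLuc, was 0.71 (q = 0.617 in that table).

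SFRP2 (chromosome 4, 153780592 to 153789120) was listed at 0 without DAC in either arm, and DAC-treated cells had 0.0454 FPKM in the siLuc arm and 0.0135 in the siStau1 arm. WIF1 (chromosome 12, 65050626 to 65121566) was likewise listed at 0 without DAC, against 0.0909 FPKM after DAC in the siLuc arm and 0.0366 in the siStau1 arm. SFRP5 (chromosome 10, 97766751 to 97771952) was listed at 0 in 3 groups and had 0.0150 FPKM in siStau1 DAC. SFRP4 (chromosome 7, 37905932 to 38025695) was listed at 0 in all 4. These 4 genes, like DKK2, were tested by the authors in no comparison. EPDR1, which overlaps SFRP4 on the opposite strand, had 6.43 to 9.05 FPKM.

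The number of members that were higher with DAC was read against all protein-coding genes. Both DAC values lay above both DMSO values for 4 of the 8 members above 0 in any group (50%), SFRP1, SFRP2, DKK3 and WIF1, and the same held for 42.3% of 18244 protein-coding genes above 0 in any group. Of the 5 members at 0 in both DMSO groups, 2 (40.0%) were above 0 in both DAC groups, against 32.2% of 3585 protein-coding genes at 0 in both DMSO groups. Both DAC values lay below both DMSO values for 1 member, WNT16, and for 24.2% of protein-coding genes. Nothing particular to the members is read from these shares. In the opposite sense, 2.64% of 2119 protein-coding genes at 0 in both DAC groups were above 0 in both DMSO groups, and no member showed this. Whether sequencing depth differed between the groups is unknown. The sum of FPKM over all genes was 1129076 with DMSO and 1793611 with DAC in siLuc, and 967545 and 1491061 in siStau1. The part of this shift in the shares was not tested. The median log2 ratio with DAC was 0.54 over the 9 members in siLuc and 0.20 in siStau1. Over the 3 members tested in each arm it was −0.24 and 0.53, beside 0.23 and 0.11 over all tested genes, so in siLuc its sign depends on which members are counted.

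SFRP1, SFRP2 and DKK3 are also made by stromal cells, and markers of other cell types moved with DAC as well. The summed level of 9 fibroblast and stromal markers was 2.89 FPKM with DMSO and 57.9 with DAC among siLuc cells, and 2.48 and 40.4 among siStau1 cells. Of these markers, 9 of 9 were higher with DAC in siLuc and 8 of 9 in siStau1. Among protein-coding genes above 0 in either group, 61.5% were higher in siLuc and 59.6% in siStau1. With DAC most of the fibroblast sum was VIM, an intermediate filament gene. VIM rose with DAC in siLuc (1.08 to 44.4 FPKM) and in siStau1 (1.21 to 31.4). VIM had q = 0.00162 in both arms of the authors' deposited table, THY1 was called higher in both and COL1A1 in siStau1. COL1A1, a collagen gene, had 1.59 FPKM with DMSO and 8.60 with DAC among siLuc cells, and 0.826 and 5.65 among siStau1 cells. Of the fibroblast markers, 3 were listed at 0 in siLuc DMSO and 2 in siStau1 DMSO. COL1A2 and LUM were at 0 in both and had at most 0.500 FPKM with DAC, while DCN went from 0.231 to 0.0986 FPKM with DAC in siStau1. The sum of 8 endothelial and immune markers was 0.402, 3.61, 0.247 and 4.35 FPKM in that order of groups. Of these 8, 7 were higher with DAC in siLuc and 8 in siStau1. PECAM1 was called higher in siLuc (q = 0.00162 in the authors' deposited table), and VWF (q = 0.0126) and PTPRC (q = 0.00162) in siStau1. In the other arm these genes were higher with DAC as well, without a call. PECAM1 went from 0.00618 to 0.777 FPKM in siStau1 (q = 0.568 in that table). In siLuc VWF went from 0.139 to 0.683 FPKM (q = 0.157). PTPRC went from a level listed at 0 to 0.174 FPKM in siLuc, where the authors did not test it. These called genes stayed below 1 FPKM in every group. Epithelial markers moved too, and 7 of 8 were higher with DAC in each arm. Their summed level was 2630, 8250, 2170 and 5969 FPKM in the same order of groups. The authors' deposited table called KRT19, a keratin gene, higher in both arms (q = 0.00162 and q = 0.0165) and the keratin gene KRT18 higher in siStau1 (q = 0.0348). It called CDX1 higher in both arms and EPCAM, a surface protein of epithelial cells, lower in siLuc, where EPCAM had 259 FPKM with DMSO and 117 with DAC (q = 0.0157). The part of such markers in the low values of the 4 antagonists was not tested.

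**Figure D4:**
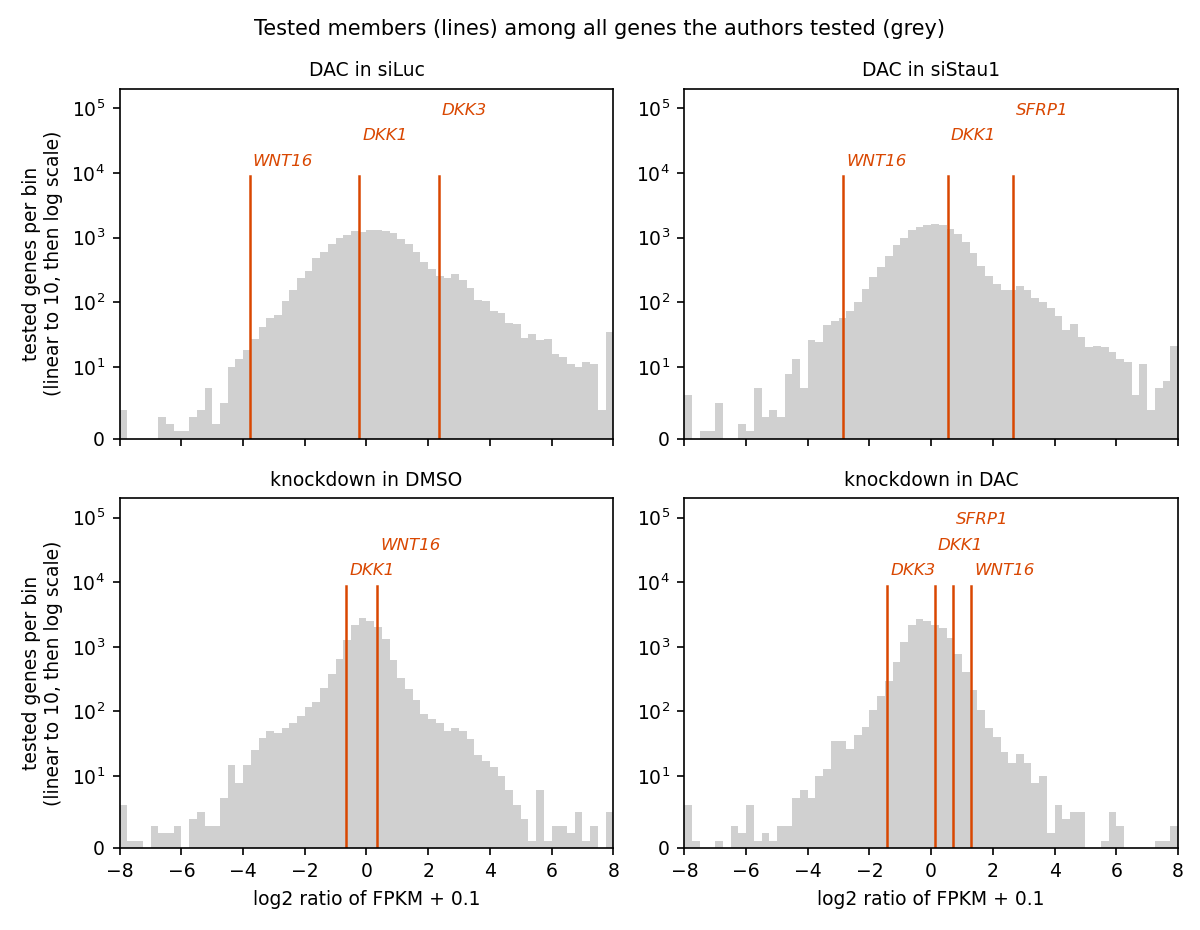
Log2 ratios of FPKM + 0.1 (x axis) in the 4 comparisons, with all genes tested by the authors as grey bars per bin of 0.25 (values beyond 8 in the outermost bins) and the tested members as lines. WNT16 lies in the left tail in both DAC comparisons (−3.79 and −2.85), and DKK1 lies inside the bulk in all 4.

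In the knockdown comparisons 0 of 2 tested members were called without DAC and 0 of 4 with DAC in the authors' Cuffdiff table, where 0.799% (0.333% higher, 0.466% lower) and 0.904% (0.434% higher, 0.469% lower) of all tests were called. At an unadjusted p-value under 0.05 there were 0 members without DAC and 2 with DAC, WNT16 as higher and DKK3 as lower in siStau1. No share of all tested genes at this unadjusted limit was computed, here or for the lists below. Nothing is read from such counts. The knockdown and DAC comparisons share groups, so their ratios are not independent.

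Other Wnt genes were taken from lists by role. Of 18 other Wnt ligands, 16 were higher with DAC in siLuc, 0 lower and 2 equal, and in siStau1 14 were higher and 4 equal. Of the ligands above 0 in either group, within GC bins 10 of 16 were higher in siLuc and 12 of 14 in siStau1. Among protein-coding genes above 0 in either group, 61.5% were higher in siLuc and 59.6% in siStau1 as computed, and 56.4% and 55.9% within GC bins. Of the 18 ligands, the authors tested 10 with DAC in siLuc and 8 in siStau1. They called 2 ligands higher in siLuc and 1 in siStau1, and 0 lower in either. At an unadjusted p-value under 0.05 (Cuffdiff) 0 ligands were lower in either arm. WNT9A rose in siLuc (0.526 to 3.47 FPKM, q = 0.00162 in the authors' deposited table) and in siStau1 (0.384 to 2.199 FPKM, q = 0.0142). WNT11, a ligand of beta-catenin-independent signalling, rose from 0.166 to 2.05 FPKM in siLuc with a q-value of 0.0388 there. In siStau1 WNT11 had 0.197 FPKM with DMSO and 1.43 with DAC, with a q-value of 0.607. The median log2 ratio of the 18 ligands was 0.70 in siLuc and 0.61 in siStau1, and 0.34 and 0.39 within GC bins. WNT16 was the most abundant ligand in both DMSO groups, where the highest of the others, WNT10B, had 3.47 and 1.97 FPKM. In siLuc DAC WNT10B stood highest at 4.92 FPKM, followed by WNT9A (3.47), WNT5B (2.49), WNT11 (2.05), WNT7B (1.87) and WNT16 (1.06). In siStau1 DAC WNT16 (2.74) and WNT10B (2.63) stood highest.

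A list of 15 genes, TMEM59 among them, was taken as other secreted or membrane inhibitors. Whether each of them acts as an inhibitor was not examined here. The authors tested 9 of the 15 for DAC in each arm. Of those tested, 1 was called higher in siLuc and 0 in siStau1, where 1 had an unadjusted p-value under 0.05. IGFBP4, a binding protein that also blocks Wnt receptors, was the called gene. It was listed at 0 in siLuc DMSO, had 0.784 FPKM in siLuc DAC, with q = 0.00162 in the authors' deposited table, and is named after its values were seen. In siStau1 IGFBP4 had 0.0404 FPKM with DMSO and 0.549 with DAC, with a q-value of 0.514 there. It thus stayed below 1 FPKM in every group. Of 18 genes for ligand secretion and receptors, 16 were tested for DAC in each arm and 0 were called in either. An unadjusted p-value under 0.05 in the authors' Cuffdiff table was held by 2 in siLuc and 2 in siStau1.

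Of 7 R-spondin and LGR genes, 2 were tested for DAC in siLuc and 1 in siStau1. LGR4, a receptor that strengthens Wnt signals, fell from 3.90 to 1.31 FPKM with DAC in siStau1 with q = 0.0214 in the authors' deposited table. In siLuc LGR4 had 2.97 FPKM with DMSO and 0.978 with DAC, with a q-value of 0.107. LGR6 of this list, named after its values were seen, was called higher with DAC in siLuc, from a level listed at 0 to 0.640 FPKM, and lower in siStau1 than in siLuc with DAC (0.0642 FPKM, q = 0.0372 in the authors' deposited table). The second of these calls did not hold when p-values were adjusted within the comparison, where it was 0.343. In siStau1 the authors did not test LGR6 for DAC. Of 22 genes of the intracellular core, 21 were tested for DAC in siLuc and 20 in siStau1. Among these, 2 were called higher in siLuc and 0 in siStau1, where 3 had an unadjusted p-value under 0.05. DVL1, which relays the receptor signal, rose from 24.8 to 70.5 FPKM and AXIN1, a scaffold of the destruction complex, from 5.72 to 12.7, with q = 0.00162 and q = 0.0343 in the authors' deposited table. Within GC bins the log2 ratio went from 1.502 to 0.30 for DVL1 and from 1.14 to 0.07 for AXIN1. The median log2 ratio of the core genes in siLuc was 0.81, and 0.26 within GC bins. CTNNB1 itself had 163 FPKM with DMSO and 120 with DAC among siLuc cells, and 168 and 137 among siStau1 cells, and was not called.

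Among 16 target genes of beta-catenin, 12 were tested for DAC in each arm. CCND1 was the only gene called with DAC, in both arms and as higher (69.6 to 189 FPKM in siLuc, 63.2 to 168 in siStau1). AXIN2, a feedback target, had 8.30 FPKM with DMSO and 21.8 with DAC among siLuc cells, and 8.38 and 12.2 among siStau1 cells, and the authors' deposited table gave q-values for DAC of 0.0521 and 0.691. With p-values adjusted within the comparison AXIN2 passed in siLuc, at 0.0293. LGR5 was listed at 0 in 3 groups and had 0.0295 FPKM in siLuc DAC.

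**Figure D5:**
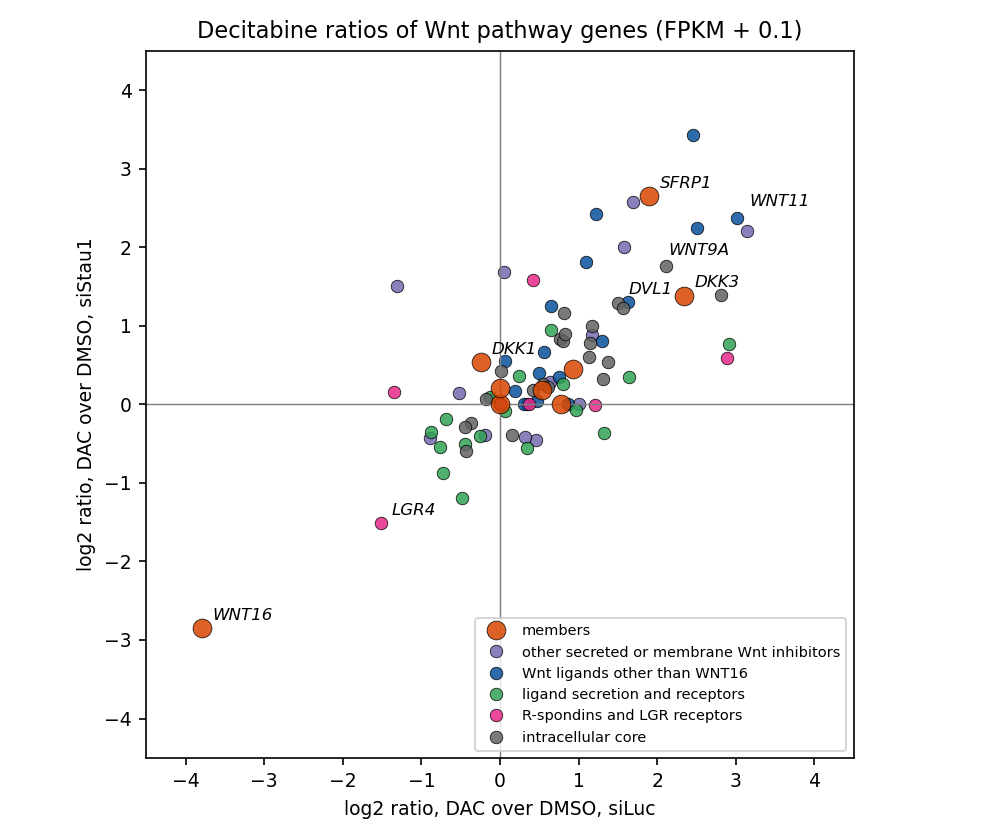
Log2 ratio of DAC over DMSO in siLuc (x axis) and in siStau1 (y axis) for the members and 5 lists of Wnt pathway genes, on FPKM + 0.1, with 1 point per gene. WNT16 is the lowest point on both axes (−3.79 and −2.85), while the other Wnt ligands lie at or above 0 on both axes.

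Genes with a course over the 4 groups like that of WNT16 and DKK1 were sought by the root mean square difference of log2(FPKM + 0.1) after each gene was centred on its own mean. For WNT16, among 8701 genes of similar mean level, the nearest was SAMD13 with a difference of 0.07, which had 7.62 FPKM with DMSO and 0.460 with DAC among siLuc cells, and 10.2 and 1.14 among siStau1 cells. RPS24P17, a processed pseudogene whose reads may come from other copies, followed at 0.24 and C1orf21 at 0.27. For DKK1, among 2001 genes, the nearest were MRPL17 at 0.02, PLAA at 0.03 and MRPL20 at 0.03. MRPL17 and MRPL20 encode proteins of the mitochondrial ribosome. Likeness over 4 group values is a description of these groups.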

How the data were processed

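Total RNA of 8 libraries in 4 groups was used, out of 11 libraries in the series. The 3 libraries enriched with the J2 antibody give reads on repeat elements without genome positions and were not used here. The authors deposited FPKM values in the layout of Cuffdiff, per the file headers, with 1 value per group of 2 libraries and 6 pairwise comparisons, of which 4 were used. The authors' p-values and q-values, per the file headers, come from the same table. The deposited q-value equals a Benjamini-Hochberg value over all 102180 tests, with a largest gap of 5.3e-07, and the smallest p-value is 5e-05. The submitters' processing notes name bcl2fastq 2.20, HISAT2 2.1.0, featureCounts, DESeq 1.36.0, Cuffdiff 2.2.1, Cuffnorm 2.2.1 and the build hg38. Which tool made which value, and whether counting used the strand, is not given in the sources used here.

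A gene was called at a q-value under 0.05, and fold changes are log2 ratios of FPKM + 0.1, a pseudocount that understates the change of low genes. No test of this work was made, since the table holds no value per library, and the tests planned for such values were not run. All 58699 identifiers are in GENCODE release 29 (GRCh38), which gave positions and the length and GC content of the longest transcript. Ratios were also centred within 20 bins of transcript GC content, with a procedure that was tested on simulated data. Promoters came from RefSeq (GRCh38.p14). Python 3.11.15, pandas 2.3.3, numpy 2.4.6 and scipy 1.17.1 were used. The members and the gene lists were chosen with earlier results of these data known. Listed genes are named if called with at least 1 FPKM in a compared group, at most 6 per list, along with STAU1, CTNNB1, AXIN2, LGR5 and the receptors of DKK proteins. Like genes are the nearest 3. Neighbours, IGFBP4, LGR6, WNT5B, WNT7B, WNT10B, COL1A2, LUM, DCN, PECAM1, VWF, PTPRC, KRT8, CDX1 and VIL1 were named outside this rule after their values were seen. Alternatives were the q-value limit, adjustment within a comparison, the pseudocount, centring and a filter on low values.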

Additional observations from a re-analysis of the deposited data

How the results depend on the processing

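The number of called members, 1 in each DAC comparison and 0 in each knockdown comparison, was the same with a q-value limit of 0.01, with p-values adjusted within each comparison and with members of at least 1 FPKM in either group only. The median log2 ratio of the members with DAC depended on the pseudocount because most members are low: it was 0.54 in siLuc and 0.20 in siStau1 with 0.1 FPKM added, 0.064 and 0.022 with 1, and 2.47 and 1.23 with 0.01. Within GC bins it was 0.38 and 0.41. The 0.41 in siStau1 was the value of DKK2, which was listed at 0 in both siStau1 groups. It therefore reflects the centring and shows no change of a member. Over the members with at least 1 FPKM in either group, which are WNT16 and DKK1, it was −2.01 and −1.16 with DAC, and for knockdown −0.15 with DMSO and 0.70 with DAC, where it was 0.00 over all 9 members. Centred on the median of genes that reached 1 FPKM in each compared group, the knockdown median with DAC was 0.11. This was the value of SFRP4, listed at 0 in every group, so it reflects only the centring. No paired analysis was possible because the table holds 1 value per group, and for the same reason no replicate could be left out. Values below 1 FPKM are the least certain, since the depth is unknown.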
